A study of Homo sapiens and Mus musculus with 13 samples.

Results

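The genes described here encode the chromatin machinery built around MLL1, menin and DOT1L. They were chosen by gene symbol, as Mll1 (the files' older symbol for Kmt2a), Men1, Dot1l, Psip1, Mllt1, Mllt3, Mllt10, Aff1 and Aff4. These are 9 genes of the 37991 in the mouse tables, and all 9 were found and were abundant enough to test. MLL1 methylates lysine 4 of histone H3, menin is the scaffold that tethers it, and LEDGF, the product of Psip1, anchors that pair on chromatin. DOT1L methylates lysine 79 of histone H3 and works with AF10 (Mllt10), while ENL (Mllt1) and AF9 (Mllt3) are YEATS-domain readers of acylated histones that join either DOT1L or the super elongation complex, of which AF4 (Aff1) and AFF4 (Aff4) are scaffolds. In human leukaemia MLL1 is fused to several of these partners, and leukaemia with mutant nucleophosmin depends on wild-type MLL1 and menin to keep HOX and MEIS1 genes active.

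RNA was sequenced from a mouse haematopoietic progenitor line immortalized by HOXB8. The edited cells were 3 single-cell clones, numbered 4, 12 and 18, with an NPM1c knock-in that was made with CRISPR/Cas9 and carries GFP. The wild-type parental line, also immortalized by HOXB8, gave 2 libraries. NPM1c is the leukaemia mutant of nucleophosmin that moves to the cytoplasm. Clones and parental cells were grown alike, without drug, in RPMI-1640 with medium conditioned by cells that make stem cell factor and with beta-estradiol. Each clone descends from a single cell, whereas no label calls the parental line a clone or says that its libraries came from separate cultures. The p-values therefore measure the spread between these libraries, which between the parental libraries may be technical only. Editing, GFP and single-cell cloning go with the knock-in in all 3 clones, so their effects and that of NPM1c cannot be told apart.

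The deposited values are normalized read counts, that is reads divided by a size factor of the library. They held 7358340 to 12235174 reads per clone library, against 9728260 reads in parental replicate 1 and 99557475 in replicate 2. Of the 13132 tested genes, 7.81% had a value in parental replicate 2 that replicate 1 exceeded more than 1.5 times, and 5.06% the reverse. Npm1, the edited gene, was lower in the clones, at 14530.0 ± 535 against 25705 ± 13.7 in the parental libraries (SD, n = 3 and 2; log2 fold change -0.82, adjusted p = 0.000533, limma). All 10 genes of the progenitor list were tested, with 2 higher in the clones (Myb and Ptprc), 2 lower (Flt3 and Elane) and 6 not passing. That is 40% called, beside 16.0% of all tested genes. Every clone was above both parental libraries in 3 of these genes and below both in 3, beside 24.5% and 25.8% of all tested genes. These overlap counts lie near the background. The list summed to 79530.3 to 83357 in the clones, against 105320.0 and 96677 in the parental libraries. The lower sum came from Mpo, at 13908 ± 6069 in the clones against 40741 ± 3014 in the parental libraries (SD, n = 3 and 2). Mpo did not pass (adjusted p = 0.0629, limma), and without it the list did not sum lower in the clones. Markers of other cells moved with the groups as well, where 7.51% of all tested genes were called higher in the clones and 8.49% lower. In the mast cell and basophil list 4 of 6 tested genes were higher in the clones and 0 lower, and its 10 genes summed to 5441 to 8009.7 in the clones, against 3489.6 and 1260.0 in the parental libraries. Most of that sum was Cpa3 and Hdc, which did not pass (adjusted p = 0.225 and 0.139, limma). Cpa3 also differed between parental replicates 1 and 2, at 2450 and 386.2. Of the genes in that list, Tpsb2 was at 0 in both parental libraries and read in every clone, while Fcer1a, Cma1 and Mcpt4 were at 0 in both parental libraries and in clone 4. In clones 12 and 18 these 3 genes had few reads, 2 and 7 for Fcer1a, 4 and 12 for Cma1, and 0 and 1 for Mcpt4. The 6 megakaryocyte genes summed to 2031 to 3124 in the clones, against 431.9 and 380.1 in the parental libraries, with 1 of 4 tested (Itga2b) higher. The B cell genes summed to 735.5 to 1013 in the clones, against 1399.9 and 1465 in the parental libraries. Of 4 tested B cell identifiers, both those of Ebf1 among them, 2 were lower, and Ms4a1 was at 0 throughout. Erythroid genes summed to 39.6 to 68.9 in the clones, against 3.11 and 4.43 in the parental libraries. Most of that was Hbb-b1, the 1 gene tested, which was higher in the clones, at 51.3, 61.6 and 25.4 against 0 and 0.763 in the parental libraries, with Hba-a1 and Slc4a1 at 0 in all libraries. In the stromal and endothelial list Pecam1 alone was tested and was higher, with Cdh5 and Dcn at 0, and in the T and NK cell list 1 gene was tested and did not pass, with Cd3e and Cd3g at 0. The part of these differences in the results that follow was not tested. In bulk RNA, fewer cells of a type and less RNA per cell cannot be told apart.

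The knock-in clones were compared with the parental line. Of the 9 genes, Mll1 and Aff1 were higher in the clones, Psip1 was lower, and 6 did not pass the test (adjusted p under 0.05 by limma). Over all 13132 tested genes the test called 2101 (16.0%), with 986 higher (7.51%) and 1115 lower (8.49%). That balance depended on the parental libraries, with 1230 higher and 576 lower without replicate 1, and 590 higher and 400 lower without replicate 2. In 5 of the 9 genes the clones and the parental libraries did not overlap, beside 50.2% of all tested genes. Every clone was above both parental libraries in 3 of the 9 (24.5% of all tested genes) and below both in 2 (25.8%). These counts of overlap lie near the background. The share called was 33.3% of the members, beside 16.0% of all tested genes, and 9 genes are too few to read that as a difference. The median log2 fold change was -0.04 over the 9 genes and 0.01 over all tested genes. The member values rest on 337 reads (Mllt1 in clone 4) to 40957 reads (Men1 in parental replicate 2), and the fewest reads give a counting error of 5.45%.

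**Figure D1:**
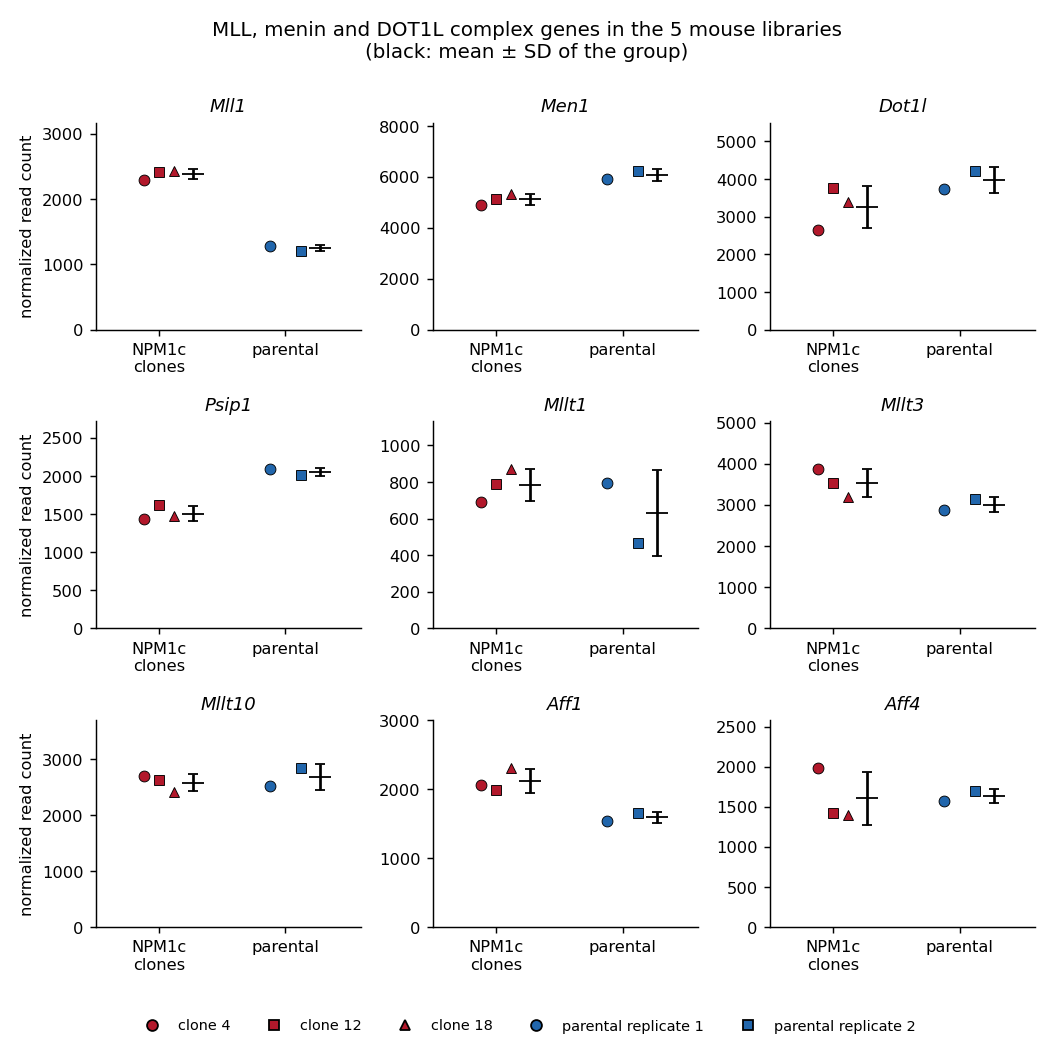
Normalized read count (y axis, linear, from 0) of the 9 genes in each library, with the 3 NPM1c clones left (red) and the 2 parental libraries right (blue); black marks are the group mean ± SD. Mll1 lies between 2302 and 2439.5 in the clones, above the parental 1282 and 1214, and Psip1 shows the reverse order of groups, while the groups overlap in Dot1l, Mllt1, Mllt10 and Aff4.

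Mll1, the H3 lysine 4 methyltransferase, had the largest change of the 9. Its normalized read count was 2302, 2420.3 and 2439.5 in clones 4, 12 and 18, against 1282 and 1214 in parental replicates 1 and 2. The clones lay close together, within 1.06-fold of each other, and the lowest clone stood 1.80-fold above the higher parental library. The group means were 2387 ± 74.6 and 1248 ± 48.3 (SD, n = 3 and 2), a 1.91-fold difference (log2 0.94, SE 0.0923, 95% interval 0.72 to 1.15, adjusted p = 0.00097, limma). By p-value Mll1 ranked 142 of the 13132 tested genes, and by size of change 1498. The call held under all 15 alternatives, with a log2 fold change of 0.90 to 0.97. The tables hold a single value per gene, so transcript isoforms are not separated.

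Men1 encodes menin, the scaffold between MLL1 and LEDGF. It was at 4913, 5138 and 5343 in clones 4, 12 and 18, against 5927 and 6253 in the parental libraries. Every clone was below both parental libraries, with means of 5132 ± 215 and 6090.0 ± 230.1 (SD, n = 3 and 2), but the difference did not pass the test (log2 fold change -0.25, SE 0.0809, adjusted p = 0.079, limma). DESeq2 on the recovered reads put the same value just past the threshold (adjusted p = 0.0494, n = 3 and 2), and over the alternatives the adjusted p ran to 0.305.

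Psip1 encodes LEDGF, which binds methylated lysine 36 of histone H3 and carries menin and MLL1 to chromatin. Its count was 1434, 1614 and 1476 in clones 4, 12 and 18, against 2090 and 2014 in the parental libraries. The groups did not overlap, and the lower parental library was 1.25-fold above the highest clone. Psip1 fell to 1508 ± 94.2 in the clones, against 2052 ± 53.9 in the parental libraries (SD, n = 3 and 2; log2 -0.45, SE 0.0992, 95% interval -0.68 to -0.21, adjusted p = 0.0221, limma). The call was lost without clone 12 or clone 18 (adjusted p = 0.0531 and 0.0583, log2 fold change -0.50 and -0.43) and without parental replicate 1 or 2 (0.0847 and 0.0800, with -0.42 and -0.47), while the size of the difference changed little.

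Dot1l, the lysine 79 methyltransferase, was at 2648, 3751 and 3386 in clones 4, 12 and 18, against 3737 and 4226 in the parental libraries. Clone 4 was the lowest library, and clone 12 overlapped the parental pair. Its change did not pass (log2 -0.30, SE 0.152, 95% interval -0.66 to 0.06, adjusted p = 0.226, limma), and its size depended on the clones, at -0.16 without clone 4 and -0.41 without clone 12. Mllt10, whose product AF10 is the DOT1L cofactor, was at 2704, 2626 and 2420.5 in the clones, against 2515 and 2847 in the parental libraries, and the groups overlapped. Its log2 fold change was -0.05 (SE 0.100, 95% interval -0.29 to 0.18, adjusted p = 0.756, limma).

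The readers ENL and AF9 are paralogues. Mllt3, for AF9, was at 3867, 3522 and 3199 in clones 4, 12 and 18, against 2874 and 3141 in the parental libraries. Every clone was above both parental libraries, though clone 18 by only 1.02-fold, and the difference did not pass (log2 0.23, SE 0.106, 95% interval -0.02 to 0.48, adjusted p = 0.192, limma). Mllt1, for ENL, was at 691.4, 789.1 and 870.2 in the clones, against 797.0 and 466.4 in parental replicates 1 and 2. The parental libraries differed 1.71-fold from each other, and replicate 1 lay inside the range of the clones. The difference did not pass (log2 0.36, SE 0.231, adjusted p = 0.338, limma) and depended on which parental library was used: it was 0.74 without replicate 1 (adjusted p = 0.0355) and -0.03 without replicate 2 (adjusted p = 0.936). Of the other pathway genes, 4 of 73 tested were likewise more than 1.5 times lower in parental replicate 2 than in replicate 1. The log2 ratio of Mllt3 to Mllt1 within a library was 2.48, 2.16 and 1.88 in clones 4, 12 and 18, against 1.85 and 2.75 in the parental libraries, which enclose the clones (exact permutation test, two-sided p = 1; with 10 splits the smallest possible p is 0.2).

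Aff1 encodes AF4, a scaffold of the super elongation complex and a frequent fusion partner of MLL1. It was at 2062, 1986 and 2308 in clones 4, 12 and 18, against 1537 and 1652 in the parental libraries, so that the lowest clone was 1.20-fold above the higher parental library. Its mean was 2118 ± 168 in the clones and 1594 ± 81.5 in the parental libraries (SD, n = 3 and 2), and the 1.33-fold rise passed the test (log2 0.41, SE 0.105, 95% interval 0.16 to 0.65, adjusted p = 0.0373, limma). The call was lost without clone 12 or clone 18 (adjusted p = 0.0800 and 0.0897, log2 0.45 and 0.34), without parental replicate 1 or 2 (0.139 and 0.0917, with 0.36 and 0.46) and with TMM scaling (0.0563). Aff4, for the related scaffold AFF4, was at 1986, 1424 and 1404 in clones 4, 12 and 18, against 1571 and 1698 in the parental libraries. Clone 4 was above the parental pair and the other clones below it, and its log2 difference was -0.04 (SE 0.163, 95% interval -0.43 to 0.34, adjusted p = 0.881, limma). The log2 ratio of Aff1 to Aff4 was 0.05, 0.48 and 0.72 in clones 4, 12 and 18, against -0.03 and -0.04 in the parental libraries, a mean difference of 0.45. All clones were above both parental libraries, clone 4 by little, and the two-sided exact permutation p was 0.2, the smallest that these 10 splits allow.

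The 9 genes thus varied differently from clone to clone. The range over the clones on the log2 scale was 0.08 in Mll1, 0.12 in Men1 and 0.16 in Mllt10, and 0.50 in Dot1l as in Aff4, where the median over all tested genes was 0.31. Between the parental libraries it was 0.05 in Psip1 to 0.18 in Mllt10 for 8 of the genes and 0.77 in Mllt1, with a median of 0.18 over all tested genes. In these 2 genes clone 4 was the clone that stood apart, low in Dot1l and high in Aff4.

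The other methyltransferases of lysine 4 belong to the same COMPASS family as MLL1 and share its WDR5, RBBP5, ASH2L and DPY30 core. Among the 17 genes of the COMPASS and KMT2 list, 2 were higher in the clones, 0 lower and 15 did not pass, which is 11.8% called beside 16.0% of all tested genes, with a median log2 fold change of 0.02. Mll2, the files' symbol for Kmt2d, an enhancer methyltransferase, was at 1284, 1618 and 1414 in clones 4, 12 and 18, against 752.0 and 682.7 in the parental libraries. That was a 2.00-fold difference with no overlap (log2 1.00, SE 0.130, adjusted p = 0.00297, limma), and it was called in all 15 alternatives. Mll3, for Kmt2c, the close relative of Mll2, was at 2571, 2399 and 2012 in the clones, against 1496 and 1745 in the parental libraries (log2 0.52, SE 0.132, adjusted p = 0.0358, limma). The Mll3 call was lost without clone 4 (0.0553), clone 12 (0.124), parental replicate 1 (0.150) or parental replicate 2 (0.0633), where its log2 fold change was 0.44, 0.49, 0.41 and 0.63. It was also lost with no filter on low values and with neither trend nor robust moderation (adjusted p = 0.0868 and 0.109, limma).

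Wbp7, the files' symbol for Kmt2b, the nearest relative of MLL1, averaged 3096 ± 79.4 (clones) and 2991 ± 294 (parental libraries) (SD, n = 3 and 2; log2 0.05, 95% interval -0.17 to 0.27, adjusted p = 0.740, limma). Setd1a and Setd1b, the remaining methyltransferases of the family, had log2 fold changes of 0.02 and 0.17 (adjusted p = 0.908 and 0.496, limma). The core genes Wdr5, Rbbp5, Ash2l and Dpy30 lay between -0.22 and 0.02 on the same scale, and none passed. Whether the change of Mll1 differs from that of Wbp7 was not tested.

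**Figure D2:**
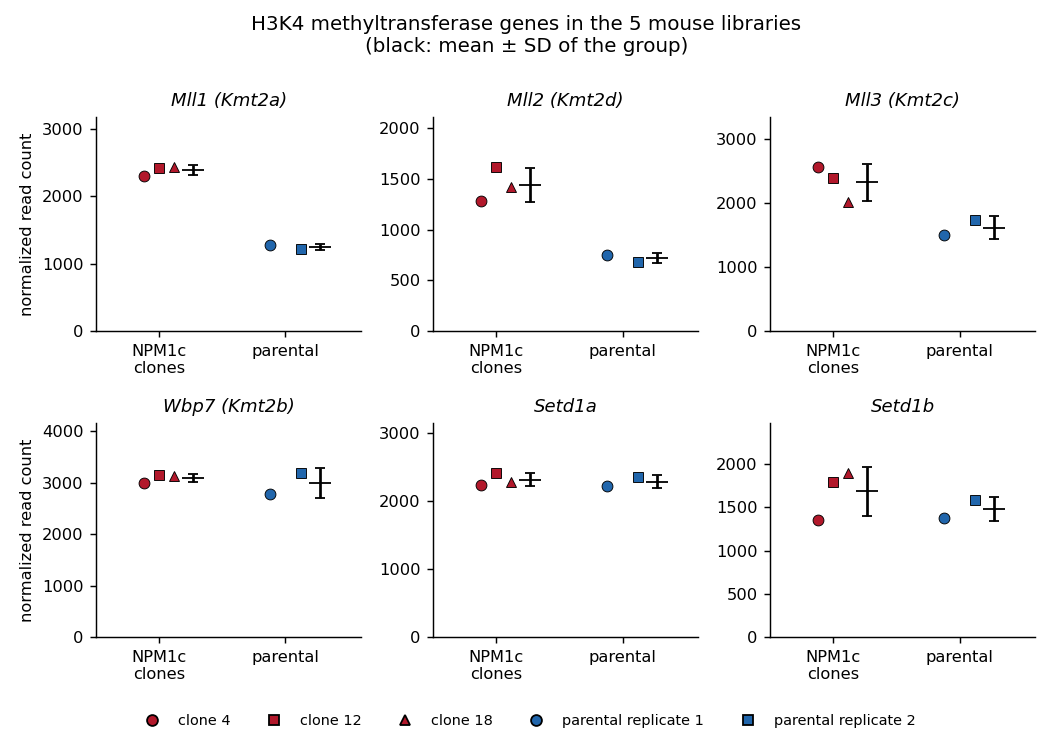
Normalized read count (y axis, linear, from 0) of 6 methyltransferase genes in each library, NPM1c clones left (red) and parental libraries right (blue), with black marks for the group mean ± SD. Mll1, Mll2 and Mll3 are above both parental libraries in all 3 clones, while Wbp7, Setd1a and Setd1b overlap between the groups.

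Around the elongation scaffolds, the list of super elongation and P-TEFb genes had 13 tested of 15, with 2 lower in the clones, 0 higher and 11 not passing. That is 15.4% called, beside 16.0% of all tested genes, with a median log2 fold change of 0.06. Hexim2, an inhibitor of P-TEFb, was at 47.2, 48.0 and 52.3 in clones 4, 12 and 18, against 90.1 and 107.9 in the parental libraries (log2 -0.99, SE 0.214, adjusted p = 0.0199, limma), a call lost without clone 12 (0.0656), parental replicate 1 (0.0565) or replicate 2 (0.153), where its log2 fold change was -0.98, -1.12 and -0.86. Ell3, an elongation factor, had 8.21, 4.92 and 6.34 in clones 4, 12 and 18, against 28.0 and 34.7 in the parental libraries (log2 -2.12, SE 0.474, adjusted p = 0.0222, limma). It rests on 4 reads in each clone, and was lost without the same libraries (0.0558, 0.116 and 0.196, with -1.97, -2.27 and -1.97). Aff3, a paralogue of Aff1 and Aff4, was at 43.1, 153.9 and 117.3 in clones 4, 12 and 18, against 216.0 and 257.9 in the parental libraries. Every clone was below both, but the clones varied and it did not pass (log2 -1.35, SE 0.540, adjusted p = 0.158, limma). Ell2 and Hexim1 had log2 fold changes of 0.75 and 0.55, with every clone above both parental libraries, and did not pass (adjusted p = 0.110 and 0.164, limma). For Hexim1 the lowest clone, at 455.5, was level with parental replicate 1 at 455.2, while parental replicate 2 was at 261.8. Cdk9, Ccnt1 and Ccnt2, the kinase and cyclins of P-TEFb that release paused polymerase, had log2 fold changes of 0.07, -0.15 and -0.01, none of which passed. In the PAF complex, which carries MLL1 onto transcribed genes, 0 of 7 tested identifiers were called by limma, edgeR or DESeq2, and 0 had an unadjusted p under 0.05 in any of them. Over all tested genes limma called 16.0%, and 31.1% had an unadjusted p under 0.05. The largest log2 fold change in the PAF complex was 0.22, in Rtf1 (adjusted p = 0.353, limma).

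Of the 13 partners of menin, LEDGF and DOT1L, 1 was higher, 2 were lower and 10 did not pass. That is 23.1% called, beside 16.0% of all tested genes, with a median log2 fold change of -0.08. Jund, the AP-1 factor that menin binds, rose to 581.0 ± 56.0 in the clones, against 327.1 ± 9.99 in the parental libraries (SD, n = 3 and 2; log2 0.82, SE 0.142, adjusted p = 0.00947, limma). Phf17 (Jade1) and Myst2 (Kat7), a scaffold and the catalytic subunit of the HBO1 acetyltransferase, were lower. Phf17 averaged 1744 ± 77.2 over the clones and 2914 ± 265 over the parental libraries (log2 -0.74, SE 0.100, adjusted p = 0.00347, limma, n = 3 and 2). Jund and Phf17 were called in all 15 alternatives. Myst2 was at 3509 ± 241 and 4545 ± 488 in the same order (log2 -0.37, adjusted p = 0.0488, limma, n = 3 and 2), and lost its call in 8 of 15 alternatives, among them leaving out clone 4 (0.0740), clone 12 (0.152), clone 18 (0.0546) or parental replicate 2 (0.255), with log2 fold changes of -0.33, -0.36, -0.43 and -0.26.

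Among 5 tested demethylases of H3 lysine 4, 1 was higher in the clones and 4 did not pass (20% called, beside 16.0% of all tested genes). Kdm1b (LSD2) was the higher gene, at 555.8 ± 56.2 against 316.4 ± 49.8 in the parental libraries (SD, n = 3 and 2; log2 0.81, SE 0.163, adjusted p = 0.0151, limma). That call was lost without clone 12 (0.0574) or parental replicate 1 (0.0522), with log2 fold changes of 0.84 and 0.65. Its relative Kdm1a (LSD1) was at 1788 ± 98.5 and 2279 ± 191 in the same order and did not pass (log2 -0.35, adjusted p = 0.0572, limma). Kdm5a, Kdm5b and Kdm5c lay within 0.03 of 0 on the log2 scale.

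**Figure D3:**
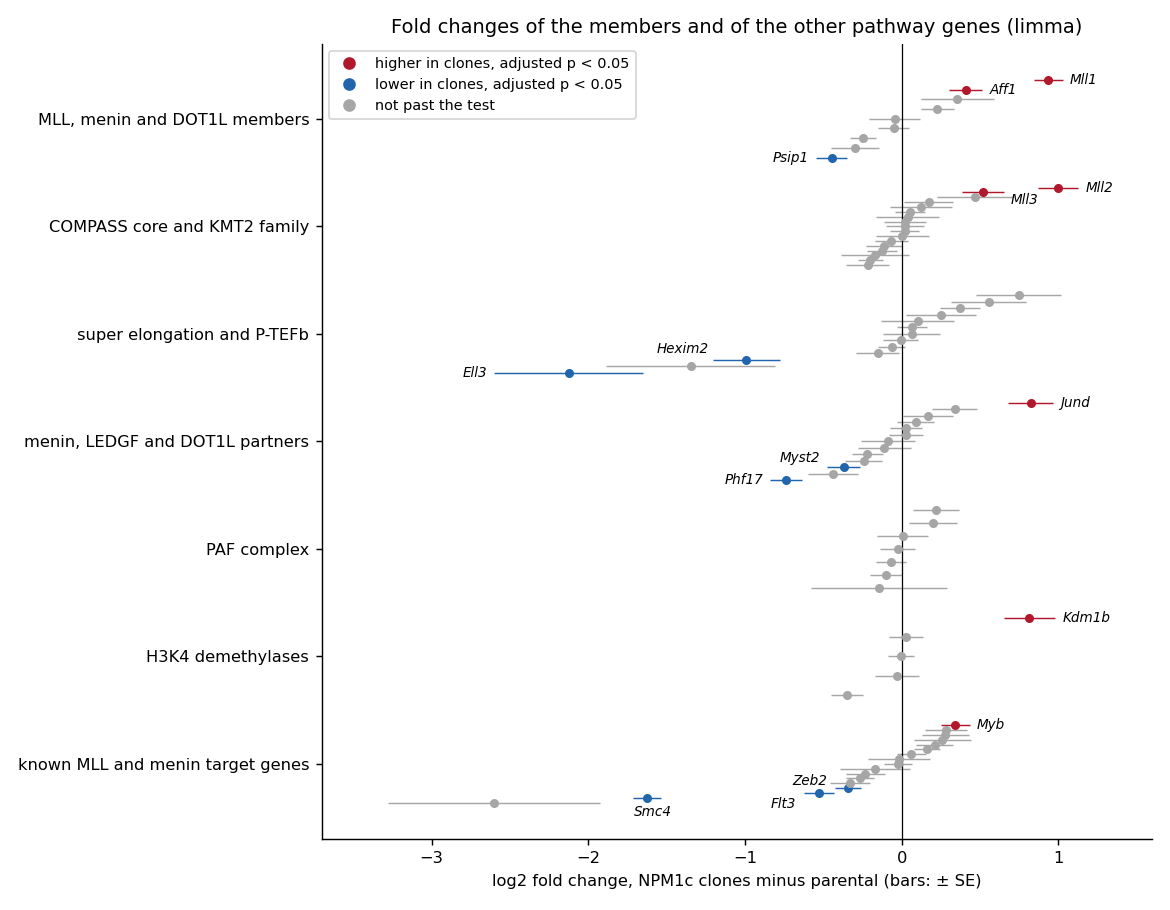
Log2 fold change (x axis, NPM1c clones minus parental, bars ± SE) of each tested gene in the 9 members and in 6 lists of related genes; red and blue points passed the test at an adjusted p under 0.05, grey points did not. Mef2c, without a read in the clones, is left out of the plot. Among the genes that did not pass, Cdkn2c lies at -2.60, Aff3 at -1.35 and Ell2 at 0.75.

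Genes that MLL1 and menin are known to activate in leukaemia, in blood progenitors or in endocrine cells did not move in a single direction. Of 30 identifiers for 28 such genes, 18 were tested, 1 was higher in the clones, 4 were lower and 13 did not pass. That is 27.8% called, beside 16.0% of all tested genes, with a median log2 fold change of -0.10. Mef2c, without a read in the clones, stays the lowest value when set to its bound, so that setting could not move the median. Every clone was below both parental libraries in 8 of the 18 and above both in 3, beside 25.8% and 24.5% of all tested genes. Both identifiers of Runx2 are among those 8. The 12 that were too low to test include Hoxa5, Hoxa6, Hoxa9 and Hoxa10, which were at 0 reads in all 5 libraries and so were not detectable at this depth. Hoxb4 was at 0, 1.23 and 4.76 in clones 4, 12 and 18, against 17.1 in each parental library, and Hoxb3 had 0 reads in every clone, against 6.21 and 3.82 in the parental libraries. Both were lower in every clone than in either parental library, at few reads and with no test. Meis1, the classic target beside HOXA9, was at 2099, 1619 and 1384 in clones 4, 12 and 18, against 1289.6 and 1519 in the parental libraries, and did not pass (log2 0.26, 95% interval -0.16 to 0.68, adjusted p = 0.366, limma).

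Myb, a progenitor transcription factor, was the target that rose, to 21699.8 ± 1956 in the clones, against 17078 ± 913 in the parental libraries (SD, n = 3 and 2; log2 0.34, SE 0.0907, adjusted p = 0.0412, limma). Its call was lost in 7 of 15 alternatives, among them without clone 4 (0.0543), clone 12 (0.129), parental replicate 1 (0.0732) or replicate 2 (0.202), with log2 fold changes of 0.28, 0.34, 0.40 and 0.29. Flt3, the cytokine receptor of early progenitors, fell to 3812 ± 348 in the clones, against 5483 ± 53.2 in the parental libraries (log2 -0.53, SE 0.0977, adjusted p = 0.0117, limma, n = 3 and 2), and lost its call without clone 12 (0.0543) or parental replicate 2 (0.0635), where its log2 fold change was -0.52 each time. Zeb2, a zinc finger repressor, was at 2793 ± 54.5 and 3549 ± 107 in the same order (log2 -0.35, adjusted p = 0.0290, limma, n = 3 and 2), a call lost without clone 12 (0.113), clone 18 (0.0559), parental replicate 1 (0.0696) or replicate 2 (0.145), with -0.33, -0.36, -0.38 and -0.32 on the log2 scale. Flt3 and Zeb2 also lost their calls with neither trend nor robust moderation (adjusted p = 0.0644 and 0.104, limma).

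Smc4, a condensin subunit, and Mef2c, a myeloid and lymphoid factor, were the other targets that fell. Smc4 was at 3280.3, 3653 and 3811 in clones 4, 12 and 18, against 11298.5 and 10770.6 in the parental libraries, and changed by -1.63 on the log2 scale (SE 0.0914, adjusted p = 0.000112, limma). Mef2c had 0 reads in every clone, against 411.7 and 531.4 in the parental libraries, so it was at least 301-fold lower when the clones are set to the 3 reads that a count of 0 allows over their group. Cdkn2c, a cell cycle inhibitor that menin and MLL1 keep active in endocrine cells, was at 16.4, 38.2 and 90.4 in clones 4, 12 and 18, against 240.8 and 238.6 in the parental libraries. Every clone was far below the parental pair, but the clones differed among themselves and the test was not passed (log2 -2.60, SE 0.676, adjusted p = 0.0568, limma).

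Over all 6 lists together, 13 of 73 tested identifiers were called, 5 higher and 8 lower, which is 17.8% beside 16.0% of all tested genes. The members and the lists were chosen by name with earlier results of these data known, so these counts are descriptions.

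**Figure D4:**
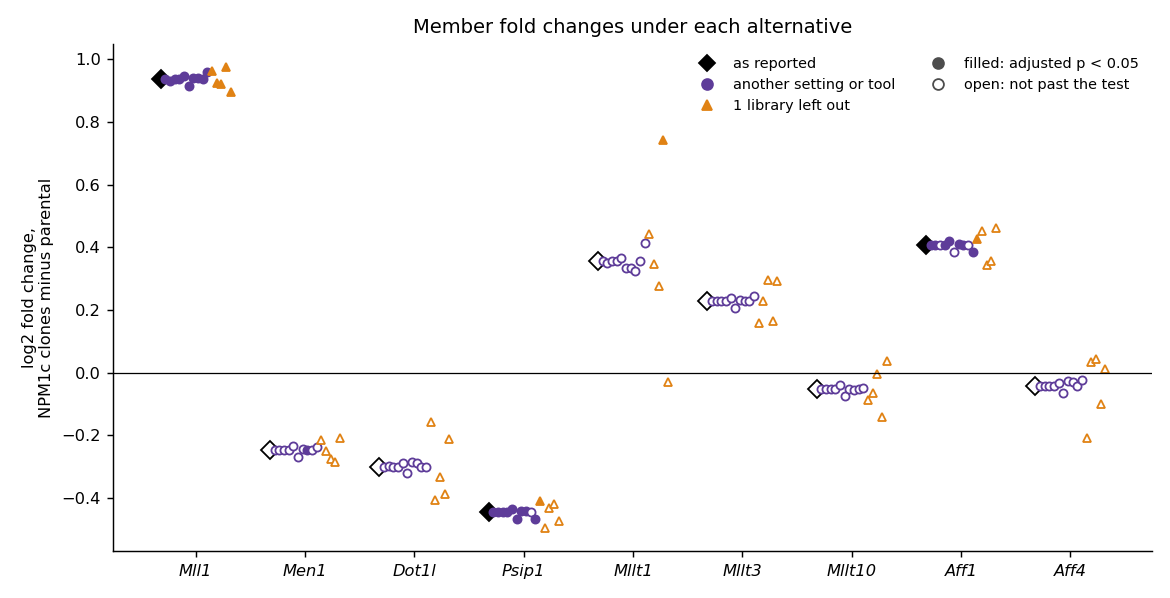
Log2 fold change (y axis, NPM1c clones minus parental) of each member as reported (black diamonds), under other settings or tools (purple circles) and with 1 library left out (orange triangles); filled symbols passed the test at an adjusted p under 0.05 and open ones did not. Mll1 stays between 0.90 and 0.97 and filled throughout, Psip1 and Aff1 keep their sign but become open in several settings, and Mllt1 spreads from -0.03 to 0.74.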

How the data were processed

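Per the labels' protocols, the kits were RNeasy micro for RNA and NEBNext Ultra II for the mouse libraries. Per the submitters' processing notes the tools were STAR 2.6.1, DESeq2 and RSEM and the genome builds mm9 and hg19, with no role stated. Which program counted reads, on which annotation and with which strand setting, is not given in the sources used here. The authors deposited a signal value per Ensembl gene and mouse library, which is a read count divided by a size factor of that library. Dividing each library by a common step gave whole numbers, within 0.01, for 100% of nonzero entries. The step started as the smallest value of the library and was then refitted over all its nonzero entries. Groups came from the sample titles. The file headers carry other clone numbers than the titles (4 for clone 12, 12 for clone 18 and 18 for clone 4), and clones are named here by title. The 8 human libraries were not analysed here.

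The members and gene lists were chosen with earlier results of these data known. limma 3.58.1 in R 4.3.3, on log2(value + 1) and with its trend and robust options, was run on the 13132 of 37991 genes whose mean reached 10, and p-values were adjusted over all of them by the Benjamini-Hochberg method. Fold changes are on this log2(value + 1) scale, which understates changes of genes with few reads. Alternatives were other pseudocounts, filters and scalings, edgeR 4.0.16 and DESeq2 1.42.0 on recovered reads, limma without trend and robust moderation, thinning of the deepest library, and leaving out each library. The tests were run on simulated data first. Genes named are all members and, per list, up to 4 called genes in each direction with the smallest p; the other list genes and the marker genes were named after their values were seen. Chi-square divided by its degrees of freedom, over genes, was 6.34 to 11.9 between clones and 26.9 between the parental libraries, so no 2 were the same library deposited again; this does not show that they are independent cultures. Each library was counted as 1 replicate, as labelled. Some list genes are not reported here.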

Additional observations from a re-analysis of the deposited data

How the results depend on the processing

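No paired analysis was possible because clones and parental libraries share no replicate number. The number of genes called was 1271 with neither trend nor robust moderation in limma and 990 to 2115 with 1 library left out (990 without parental replicate 2 and 1023 without clone 12), against 2101 as reported. Members called numbered 3, or 1 without that moderation, 1 to 3 with 1 library left out and 4 with DESeq2. Pathway list genes called numbered 13, or 8 without that moderation and 5 to 13 with 1 library left out (5 without clone 12, 6 without parental replicate 2). Without that moderation Psip1 and Aff1 kept log2 fold changes of -0.45 and 0.41 but not their calls (adjusted p = 0.0750 and 0.106, limma). Aff1 was also lost with no filter on low values (0.41, adjusted p = 0.0701) and with TMM scaling (0.39). Men1 passed with DESeq2 alone (-0.25). With 1 library left out, log2 fold changes ran from -0.50 to -0.41 in Psip1, 0.34 to 0.46 in Aff1, -0.031 to 0.74 in Mllt1, -0.14 to 0.037 in Mllt10 and -0.21 to 0.043 in Aff4, so the last 3 have no fixed direction. The ratio differences ran from -0.58 to 0.32 for Mllt3 over Mllt1 and from 0.30 to 0.63 for Aff1 over Aff4. The causes of the lost calls were not tested beyond the fewer libraries that leaving 1 out implies. Thinning parental replicate 2 to the depth of replicate 1 left the counts of called members and list genes as they were (3 and 13).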

Other observations

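Among 9913 genes with a mean of at least 100, the pattern over the 5 libraries closest to that of Mll1 was that of Sqstm1, the autophagy receptor p62, followed by Lat2, an adaptor of immune receptors, and Por, the electron donor of cytochrome P450 enzymes. Their distances to Mll1 in centred log2 values were 0.0871, 0.112 and 0.117. Sqstm1 was at 6310.4, 6586 and 6999.9 in clones 4, 12 and 18, against 3591 and 3548 in the parental libraries. Lat2 averaged 2189 ± 72.0 over the clones and 1202 ± 116 over the parental libraries, and Por 8699 ± 137 and 4418 ± 7.58 in the same order (SD, n = 3 and 2). The likeness is over 5 libraries of 2 groups and is given as a description.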
